A study of Mus musculus with 8 samples.

Results

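Peroxisomes are small organelles bounded by a single membrane, and the genes described here build them or carry out their oxidation of fatty acids. The set holds 30 of the 11234 genes in the deposited table. They were chosen by name: 12 peroxins, the proteins of peroxisome biogenesis, 16 enzymes of peroxisomal oxidation and the reactions around it, and 2 peroxisomal fatty acyl transporters. All 30 were listed. Expression was measured by RNA-seq in brown adipose tissue, a heat-producing fat, dissected from between the shoulder blades of male C57BL/6 mice aged 12 weeks. Mice of both genotypes had spent 2 weeks at 29 °C, which the labels call thermoneutrality, and tissue was taken at 5 PM (zeitgeber time 10). The 4 knockout libraries (replicates 4, 5, 19 and 20) came from mice with HDAC3 floxed alleles and Adiponectin-Cre, a recombinase that acts in adipocytes. The 4 control libraries (replicates 11, 12, 13 and 14) came from mice with the HDAC3 floxed alleles and no Cre in their label. HDAC3 is a histone deacetylase that works within the NCoR and SMRT corepressor complexes. The dissected depot also holds cells in which the adiponectin promoter is silent, and no label states whether every library is a different animal. The p-values therefore measure the spread between these libraries.

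Peroxisomes shorten fatty acids that mitochondria handle poorly, such as very long-chain, branched-chain and dicarboxylic acids. Their beta-oxidation starts with an acyl-CoA oxidase that makes hydrogen peroxide, which catalase removes. Enzymes are made in the cytosol and imported after folding: the receptor PEX5 binds one kind of targeting signal and PEX7 another, and both dock at PEX13 and PEX14. RING proteins, PEX2 and PEX10 among them, ubiquitinate the receptor, and an ATPase complex with PEX6, held to the membrane by PEX26, pulls it back out. Membrane proteins arrive separately, through PEX19, PEX3 and PEX16. In rodent liver many enzymes of the pathway are classical targets of the nuclear receptor PPARA. Brown fat is rich in peroxisomes, and they are known to multiply there in the cold.

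Library totals implied by the values ran from 13619308 to 17986134 reads. Of these, 21.4% to 25% fell on listed genes in knockout libraries, against 17.1% to 20.1% in control libraries. RPKM (reads divided by gene length and library total) was scaled between libraries by TMM, a trimmed mean of log ratios. Hdac3 stood at 2.66, 3.93, 3.62 and 2.93 RPKM in knockout replicates 4, 5, 19 and 20, against 6.91, 7.68, 7.98 and 8 RPKM in control replicates 11 to 14. The groups did not overlap, and knockout libraries kept on average 43% of the control level (limma, log2 fold change -1.02, adjusted p = 4.33e-05; two-sided exact permutation test over 70 splits, p = 0.0286, the smallest it can give). Markers of some cell types differed as well. Over all 8764 genes tested, 19.4% rose and 15.9% fell. Of 10 macrophage markers tested, all 10 rose, and their summed level was 91.4 to 106 RPKM in knockout libraries and 43.1 to 58.1 RPKM in control libraries. Of 7 adipocyte markers, 5 rose and none fell, with sums of 5118 to 6589 RPKM in knockout and 2547 to 2935 RPKM in control libraries. Fabp4 dominates these sums, at 3579.6 to 4497 RPKM in knockout and 1632 to 1753 RPKM in control libraries. Its mean was 2.35-fold higher in the knockout, that of Plin1 1.75-fold and that of Adipoq 1.4-fold, and Pparg was not called. None of 8 endothelial markers rose and 2 fell (0 fell with the library total alone and 5 on scaling by the reads on listed genes). Of 8 fibroblast markers 2 rose, and none of 5 erythroid markers was called. On so few genes, the endothelial falls and fibroblast rises (25% each) are no result about those lists. Of 7 brown adipocyte markers tested, 2 rose and 2 fell (28.6% each), which is likewise no result about the list. Among them Ucp1, the defining gene of brown fat, was at 2.02 to 8.26 RPKM in knockout and 117 to 213 RPKM in control libraries, while the brown adipocyte gene Cidea was at 425 to 528 RPKM in knockout and 365 to 413 RPKM in control libraries. None of 6 skeletal muscle or 5 hepatocyte markers was among the listed genes. The part of these marker shifts in the results below was not tested. In such bulk tissue, fewer cells of a type and less RNA per cell cannot be told apart.

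The comparison asked which peroxisomal transcripts differed when HDAC3 was deleted in adipocytes. Transcripts of both machineries were called higher in the knockout more often than lower. Among the genes tested, the largest rise was that of Ehhadh, a multifunctional beta-oxidation enzyme, at 9.66 times the control mean, and the next was that of Pex16, a membrane-assembly peroxin, at 3.00 times. The largest fall was that of Phyh, which starts the alpha-oxidation of phytanic acid and was 1.94-fold lower. Of the 30 genes, 28 reached a mean of 1 RPKM and were tested, while Pex26 and Acot4 did not. Among the 28, 15 rose (53.6%) and 3 fell (10.7%), where 19.4% of all 8764 genes tested rose and 15.9% fell (limma on log2 of RPKM + 1, Benjamini-Hochberg threshold 0.05 over all genes). In the same 15 and 3 genes every knockout library lay above, or below, every control library, which was so for 18.8% and 16% of all genes tested. The median log2 fold change was 0.28 over the 28 genes and 0.01 over all genes tested. Counted in either direction, 18 of 28 were called, against 35.3% of all genes. Log2 fold changes were computed after adding 1 RPKM, which compresses those of weakly expressed genes.

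**Figure D1:**
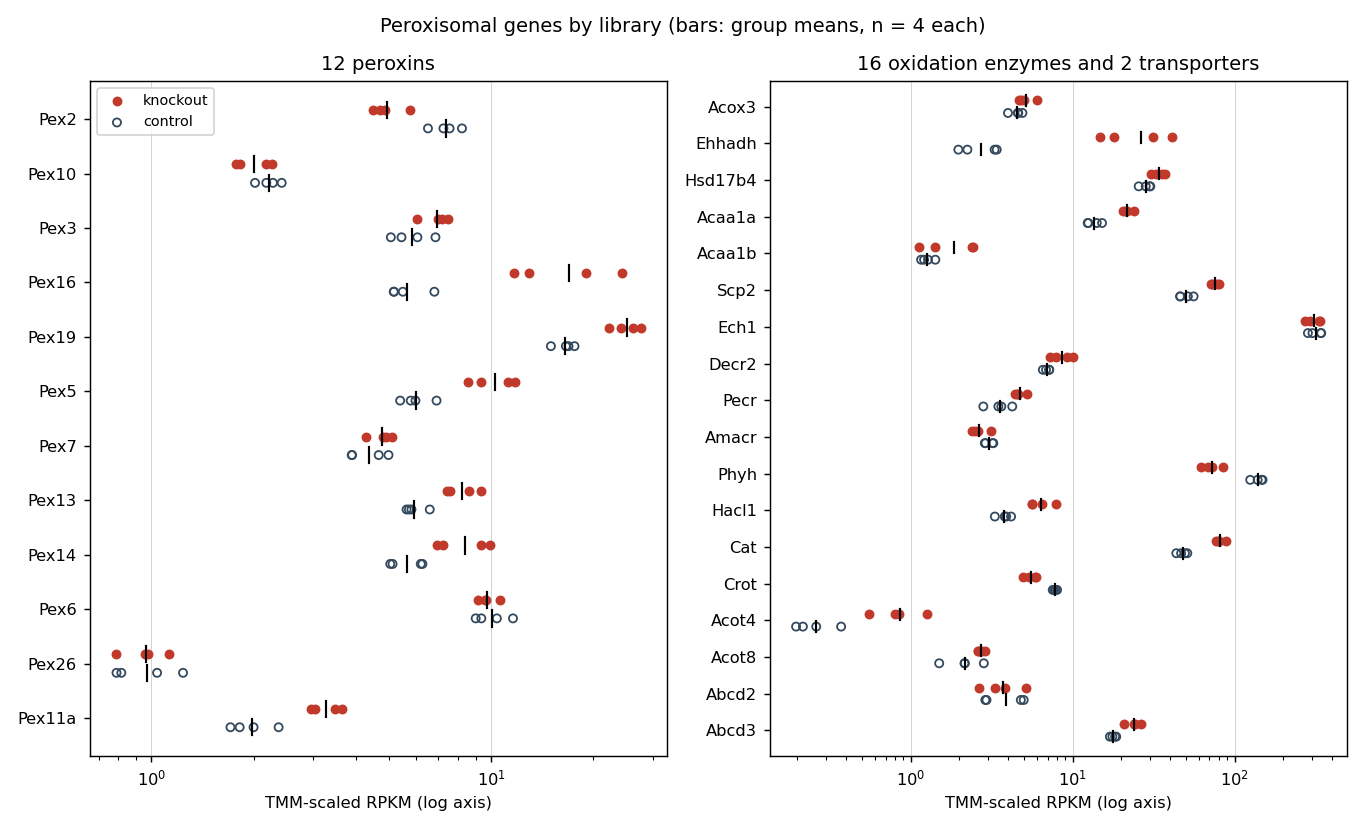
TMM-scaled RPKM (log axis) of the 12 peroxins and of the 16 oxidation enzymes and 2 transporters in each library, knockout libraries as filled points above control libraries as open points, with bars at the group means (n = 4 each). Ehhadh and Pex16 stand well to the right in the knockout rows, Phyh and Pex2 to the left, and Ech1, near 308 RPKM in knockout and 318 RPKM in control, overlaps.

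The peroxins of membrane assembly rose in 2 of 3 cases. PEX16 sits in the membrane and receives PEX3 there. Pex16 had 19, 11.7, 24.3 and 12.9 RPKM in knockout replicates 4, 5, 19 and 20, against 5.18, 5.50, 5.17 and 6.81 RPKM in control replicates 11 to 14. The lowest knockout library was thus above the highest control library, and replicates 4 and 19 stood above replicates 5 and 20. Pex16 averaged 17 ± 5.83 RPKM in knockout and 5.67 ± 0.780 RPKM in control libraries (SD, n = 4 each; limma, log2 fold change 1.38 with a 95% interval of 0.95 to 1.82, adjusted p = 0.00045). PEX19 is the soluble chaperone that carries newly made membrane proteins. Pex19 had 27.6, 24.2, 26.1 and 22.3 RPKM in knockout replicates 4, 5, 19 and 20, against 15, 17.6, 16.6 and 16.9 RPKM in control replicates 11 to 14, again without overlap. Its mean was 25.1 ± 2.28 RPKM in knockout and 16.5 ± 1.10 RPKM in control libraries, 1.52-fold (limma, adjusted p = 0.000507), and Pex19 was the most abundant of the 12 peroxins in both genotypes. Pex3, which encodes the docking site of PEX19, had 6.93 ± 0.622 RPKM in knockout and 5.86 ± 0.782 RPKM in control libraries and did not pass (limma, log2 fold change 0.21, interval 0.01 to 0.42, adjusted p = 0.103). Pex3 overlaps Adat2 on the opposite strand in GENCODE M21, and with no strand setting given the reads of the 2 genes cannot be told apart. The same limit holds for Pex16, which overlaps Large2 on the opposite strand.

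Of the 2 import receptors, the transcript of 1 rose. Pex5, whose protein binds the C-terminal targeting signal carried by most matrix enzymes, had 11.8, 8.57, 11.2 and 9.37 RPKM in knockout replicates 4, 5, 19 and 20, against 5.40, 5.80, 5.99 and 6.91 RPKM in control replicates 11 to 14. The genotypes did not overlap, and the mean was 1.70-fold higher in the knockout (limma, log2 fold change 0.67, interval 0.44 to 0.90, adjusted p = 0.000813). Pex7, whose protein binds the N-terminal signal of a few enzymes such as thiolase and phytanoyl-CoA hydroxylase, averaged 4.78 ± 0.353 RPKM in knockout and 4.36 ± 0.556 RPKM in control libraries. Its libraries overlapped and it did not pass (limma, log2 fold change 0.11, interval -0.08 to 0.30, adjusted p = 0.337). Both docking genes rose. Pex13 stood at 8.61, 7.40, 9.32 and 7.59 RPKM in knockout replicates 4, 5, 19 and 20, against 5.83, 5.73, 5.64 and 6.60 RPKM in control replicates 11 to 14 (limma, 1.38-fold, adjusted p = 0.00376). Pex14 stood at 9.93, 6.94, 9.37 and 7.2 RPKM in knockout replicates 4, 5, 19 and 20, against 6.21, 5.05, 5.13 and 6.28 RPKM in control replicates 11 to 14 (limma, 1.47-fold, adjusted p = 0.0101). Neither overlapped between genotypes, although the lowest knockout library of Pex14 was close to its highest control library. Pex13 overlaps Pus10 and Pex14 overlaps Gm17029 on the opposite strand in GENCODE M21, so the same limit holds for both.

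Among the 4 peroxins of receptor recycling, 1 was called. Pex2, a RING ubiquitin ligase subunit, was the one peroxin that fell. It had 4.49, 5.76, 4.70 and 4.87 RPKM in knockout replicates 4, 5, 19 and 20, against 6.52, 7.55, 7.24 and 8.21 RPKM in control replicates 11 to 14. Every knockout library lay below every control library, and the mean was 1.49-fold lower in the knockout (limma, log2 fold change -0.49, interval -0.69 to -0.30, adjusted p = 0.00158). Its partner Pex10 averaged 2.01 ± 0.246 RPKM in knockout and 2.22 ± 0.166 RPKM in control libraries and did not pass (limma, log2 fold change -0.10, interval -0.27 to 0.06, adjusted p = 0.321). Pex6, an ATPase of receptor release, averaged 9.75 ± 0.625 RPKM in knockout and 10.1 ± 1.14 RPKM in control libraries (limma, log2 fold change -0.04, interval -0.23 to 0.15, adjusted p = 0.749). Pex26, its membrane anchor, averaged 0.965 ± 0.143 RPKM in knockout and 0.973 ± 0.214 RPKM in control libraries, on 59 to 76 reads in knockout and 45 to 78 reads in control libraries, and was not tested.

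Pex11a, whose protein elongates the membrane before peroxisomes divide, rose. It had 3.04, 3.47, 2.95 and 3.64 RPKM in knockout replicates 4, 5, 19 and 20, against 1.82, 2.00, 2.37 and 1.71 RPKM in control replicates 11 to 14. The groups did not overlap, and the knockout mean was 1.66-fold higher (limma, log2 fold change 0.53, adjusted p = 0.00105), on 46 to 62 reads in knockout and 23 to 29 reads in control libraries. Unlike the peroxins of membrane assembly and docking, its values were higher in knockout replicates 5 and 20 than in replicates 4 and 19. Pex11a lies next to Plin1, which encodes the main coat protein of adipocyte lipid droplets, in the RefSeq gene order of GRCm38.p6. Plin1 averaged 176 ± 24.5 RPKM in knockout and 101 ± 12.8 RPKM in control libraries, 1.75-fold (limma, adjusted p = 0.000619).

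Across the 11 peroxins tested, 6 rose and 1 fell, with a median log2 fold change of 0.41. Of all genes tested, 19.4% rose and 15.9% fell. The 7 called peroxins kept their calls under every scaling, filter, pseudocount and test tried and without any single library. The number of peroxins that fell was 2 when libraries were scaled by their reads on listed genes, where Pex10 was called as well (limma, log2 fold change -0.21, adjusted p = 0.0431). Under that scaling 30.2% of all genes fell.

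Among the enzymes, those of the beta-oxidation spiral itself came first. Ehhadh encodes the L-bifunctional enzyme, which hydrates and dehydrogenates acyl-CoA and is known for long-chain dicarboxylic acids. It had 41.3, 14.8, 31.2 and 18.1 RPKM in knockout replicates 4, 5, 19 and 20, against 3.30, 1.97, 2.24 and 3.40 RPKM in control replicates 11 to 14. Knockout replicates 4 and 19 were again the highest, and the lowest knockout library was several times the highest control library. The means were 26.4 ± 12.2 RPKM in knockout and 2.73 ± 0.727 RPKM in control libraries (SD, n = 4 each; limma, log2 fold change 2.78, interval 2.16 to 3.41, adjusted p = 5.72e-05). By mean level Ehhadh stood at place 6 of the 30 genes in knockout libraries and at place 24 in control libraries. Hsd17b4, the D-bifunctional enzyme of the same reactions and the form required for very long-chain and branched-chain acids, had 34.1 ± 3.02 RPKM in knockout and 28.5 ± 2.09 RPKM in control libraries. Its call was marginal (limma, log2 fold change 0.25, interval 0.06 to 0.44, adjusted p = 0.0425). It was lost without any single library other than knockout replicate 20, at adjusted p-values of 0.0553 to 0.128, and the FDR in the authors' deposited table was 0.0532. Acox3, an acyl-CoA oxidase of branched-chain substrates, averaged 5.14 ± 0.632 RPKM in knockout and 4.53 ± 0.384 RPKM in control libraries and did not pass (limma, log2 fold change 0.15, interval -0.04 to 0.34, adjusted p = 0.2). It overlaps 4931431C16Rik on the opposite strand.

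The thiolases, which release acetyl-CoA or propionyl-CoA at the end of each turn, rose in 2 of 3 cases. Acaa1a averaged 21.8 ± 1.41 RPKM in knockout and 13.6 ± 1.34 RPKM in control libraries, 1.61-fold, without overlap (limma, log2 fold change 0.65, adjusted p = 0.000229). It overlaps Myd88, an adaptor of innate immune signalling, on the opposite strand in GENCODE M21. Its near-identical copy Acaa1b was far lower, at 2.41, 1.13, 2.40 and 1.42 RPKM in knockout replicates 4, 5, 19 and 20, against 1.28, 1.16, 1.42 and 1.21 RPKM in control replicates 11 to 14. Replicates 4 and 19 stood well above the control range, replicates 5 and 20 did not, and the gene did not pass (limma, log2 fold change 0.30, interval -0.03 to 0.62, adjusted p = 0.14); without knockout replicate 5 it did (adjusted p = 0.0273). How reads shared by the 2 copies were counted is not stated in the sources at hand, so the split between them is uncertain. Acaa1b also overlaps Dlec1 on the opposite strand, as Pex26 overlaps Gm44014. Scp2 encodes both a thiolase for branched-chain substrates and sterol carrier protein 2. It averaged 75.5 ± 4.15 RPKM in knockout and 49.9 ± 4.70 RPKM in control libraries, 1.51-fold (limma, log2 fold change 0.59, adjusted p = 0.000444).

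The auxiliary enzymes prepare unsaturated or methyl-branched substrates. Ech1, a dienoyl-CoA isomerase of peroxisomes and mitochondria, was the most abundant of the 30 transcripts, at 308 ± 32.5 RPKM in knockout and 318 ± 29.0 RPKM in control libraries (limma, log2 fold change -0.04, interval -0.27 to 0.18, adjusted p = 0.763). Decr2, the peroxisomal 2,4-dienoyl-CoA reductase, had 9.19, 7.26, 10.1 and 7.95 RPKM in knockout replicates 4, 5, 19 and 20, against 7.17, 6.85, 7.17 and 6.55 RPKM in control replicates 11 to 14. The lowest knockout value only just cleared the highest control values, and the call was marginal (limma, log2 fold change 0.27, adjusted p = 0.0444); it was lost without any single library other than knockout replicate 5, at adjusted p-values of 0.0506 to 0.11. Pecr, which reduces trans-2-enoyl-CoA, averaged 4.71 ± 0.352 RPKM in knockout and 3.54 ± 0.587 RPKM in control libraries, 1.33-fold (limma, log2 fold change 0.34, adjusted p = 0.0191; adjusted p = 0.0526 without knockout replicate 19). Pecr overlaps D230017M19Rik on the opposite strand. Amacr, a racemase that turns branched acyl-CoA into the form the oxidases accept, averaged 2.66 ± 0.324 RPKM in knockout and 3.05 ± 0.196 RPKM in control libraries and did not pass (limma, log2 fold change -0.15, interval -0.32 to 0.02, adjusted p = 0.15). It passed as lower without knockout replicate 19 (limma, adjusted p = 0.0454).

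The 2 enzymes of alpha-oxidation, which removes one carbon from 3-methyl-branched acids such as phytanic acid, moved in opposite directions. Phyh, the phytanoyl-CoA hydroxylase of the first step, had 69.0, 84.9, 62.1 and 73.1 RPKM in knockout replicates 4, 5, 19 and 20, against 139, 149, 125 and 147 RPKM in control replicates 11 to 14. All knockout libraries lay far below all control libraries (limma, log2 fold change -0.95, interval -1.18 to -0.72, adjusted p = 9.42e-05). Hacl1, the lyase of the following step, had 6.51, 5.62, 7.92 and 5.64 RPKM in knockout replicates 4, 5, 19 and 20, against 3.89, 4.17, 3.31 and 3.81 RPKM in control replicates 11 to 14. These groups did not overlap either, and the mean was 1.69-fold higher in the knockout (limma, log2 fold change 0.62, interval 0.39 to 0.85, adjusted p = 0.00112). Hacl1 overlaps Gm49387 on its own strand and Btd on the opposite strand in GENCODE M21.

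Catalase, which breaks down the hydrogen peroxide made by the oxidases, rose evenly. Cat had 88.8, 80.3, 79.6 and 76.5 RPKM in knockout replicates 4, 5, 19 and 20, against 46.8, 43.7, 49.4 and 51.1 RPKM in control replicates 11 to 14. The gap between the genotypes was wider than the spread within either, and the mean was 1.70-fold higher in the knockout (limma, log2 fold change 0.76, interval 0.58 to 0.93, adjusted p = 6.47e-05). Crot, the carnitine octanoyltransferase that prepares shortened chains for export, fell. It had 4.94, 5.94, 5.85 and 5.39 RPKM in knockout replicates 4, 5, 19 and 20, against 7.84, 8.02, 7.68 and 7.54 RPKM in control replicates 11 to 14 (limma, 1.4-fold lower, log2 fold change -0.43, adjusted p = 0.000854). The thioesterases Acot4 and Acot8 release free acids from CoA by another route. Acot4, mainly a succinyl-CoA thioesterase in the mouse, had 1.26, 0.551, 0.848 and 0.799 RPKM in knockout replicates 4, 5, 19 and 20, against 0.372, 0.261, 0.216 and 0.196 RPKM in control replicates 11 to 14. The genotypes did not overlap and the ratio of means was 3.31, on 21 to 54 reads in knockout and 7 to 13 reads in control libraries. Its mean was too low for the test as planned; with no filter it passed (limma, log2 fold change 0.55, adjusted p = 0.00482), and the authors' deposited table gives a log2 fold change of 1.70 with an FDR of 5.78e-07. Acot8 averaged 2.71 ± 0.138 RPKM in knockout and 2.16 ± 0.547 RPKM in control libraries and did not pass (limma, log2 fold change 0.25, interval -0.00 to 0.50, adjusted p = 0.115). It did pass without control replicate 11 (limma, adjusted p = 0.0269), and it overlaps Snx21 on the opposite strand. In the same annotation Acot4 overlaps Gm49366 and Crot overlaps Gm27941 on their own strand, and each has a further partner on the opposite strand (4732463B04Rik and Gm37153).

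Promoter sequences are given for 3 genes: the 2 whose upstream window holds a match to the direct repeat bound by PPAR and RXR, and Ehhadh, which rose most. RefSeq windows of GRCm38.p6 could be matched for 25 of the 30 genes (29 windows, since some genes have several start sites); Amacr, Pex19, Pex2, Abcd2 and Hsd17b4 were not used here. The motif searched was AGGTCANAGGTCA, on both strands, with up to 2 mismatches, in the 250 bases before the start site. It occurred in 2 of the 29 windows (6.9%), 3.24% of 32851 windows of all genes and 2.47% of 10391 windows of listed genes. The matches lay 204 bases before the start of Cat (read AGGTCAGAGAACA) and 13 bases before that of Acot4 (read CGGCCAAAGGTCA on the opposite strand). A match describes letters, not binding, and the letters of the motif were not found in the window of Ehhadh. The windows are Cat at chr2:103485154-103485403 on the minus strand, Acot4 at chr12:84038129-84038378 on the plus strand and Ehhadh at chr16:21787835-21788084 on the minus strand, each written 5′ to 3′ along its gene with the match in capitals.
Cat: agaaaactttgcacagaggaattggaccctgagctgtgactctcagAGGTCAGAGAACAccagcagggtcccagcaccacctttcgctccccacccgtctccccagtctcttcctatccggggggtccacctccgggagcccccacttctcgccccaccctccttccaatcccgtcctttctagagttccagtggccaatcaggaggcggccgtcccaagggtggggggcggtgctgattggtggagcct
Acot4: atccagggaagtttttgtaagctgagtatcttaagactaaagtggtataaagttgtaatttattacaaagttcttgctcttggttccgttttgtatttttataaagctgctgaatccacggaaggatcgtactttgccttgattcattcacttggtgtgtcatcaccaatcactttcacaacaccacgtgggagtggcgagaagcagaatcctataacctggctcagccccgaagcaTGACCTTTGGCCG
Ehhadh: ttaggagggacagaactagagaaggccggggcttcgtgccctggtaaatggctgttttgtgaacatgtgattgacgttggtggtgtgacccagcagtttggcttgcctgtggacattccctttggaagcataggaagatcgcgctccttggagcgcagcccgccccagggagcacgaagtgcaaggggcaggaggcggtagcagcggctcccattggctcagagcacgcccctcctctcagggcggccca

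The 2 transporters of the half-size ABC family bring fatty acyl groups into the organelle. Abcd3, which carries branched-chain and dicarboxylic acids and is one of the most abundant peroxisomal membrane proteins, had 24.4, 24.1, 26.5 and 20.8 RPKM in knockout replicates 4, 5, 19 and 20, against 18.6, 18.3, 17.6 and 17 RPKM in control replicates 11 to 14. The genotypes did not overlap, and the mean was 1.34-fold higher in the knockout (limma, log2 fold change 0.40, adjusted p = 0.00356). Abcd2, a transporter of very long-chain acids that is prominent in fat, had 5.16, 2.65, 3.34 and 3.81 RPKM in knockout replicates 4, 5, 19 and 20, against 2.94, 2.89, 4.79 and 4.99 RPKM in control replicates 11 to 14. It varied widely within both genotypes and did not pass (limma, log2 fold change -0.04, interval -0.46 to 0.37, adjusted p = 0.875).

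**Figure D2:**
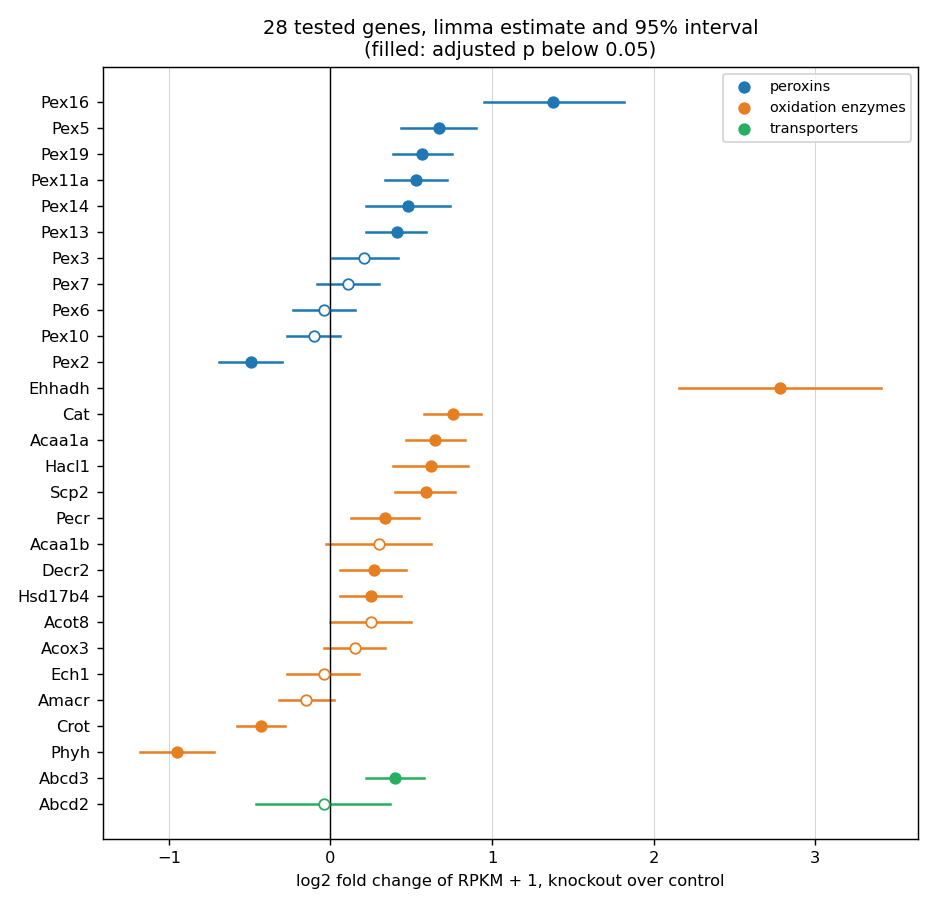
Log2 fold change of RPKM + 1, knockout over control, with its 95% interval from limma for the 28 tested genes, coloured by group; filled points passed the adjusted p threshold of 0.05. Ehhadh (2.78) and Pex16 (1.38) lie farthest to the right and Phyh (-0.95) farthest to the left, and each group holds called and uncalled genes.

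Set side by side, the peroxins and the oxidation enzymes gave similar counts. Of 11 peroxins tested 6 rose (54.5%) and 1 fell (9.09%), and of 15 oxidation enzymes 8 rose (53.3%) and 2 fell (13.3%). Of all genes tested 19.4% rose and 15.9% fell. The median log2 fold change was 0.41 for peroxins and 0.27 for oxidation enzymes. The number of enzymes that rose was 5 without knockout replicate 19, when Hsd17b4, Decr2 and Pecr no longer passed. Over all genes, 1487 rose in that fit, against 1703 with all libraries. The number of enzymes that rose was also 5 (33.3%) when libraries were scaled by their reads on listed genes. Under that scaling 12.4% of all genes rose. By library, the median log2 ratio to the control mean was 0.45, 0.26, 0.41 and 0.30 for peroxins in knockout replicates 4, 5, 19 and 20, and 0.36, 0.32, 0.47 and 0.17 for oxidation enzymes in the same libraries. In control replicates 11 to 14 it was -0.09, 0.03, -0.06 and 0.13 for peroxins and 0.01, 0.04, -0.11 and 0.07 for oxidation enzymes. Both medians were thus above every control library in every knockout library, but neither group was ahead of the other in all knockout libraries. The summed RPKM of the 12 peroxins was 91.6 to 114 in knockout and 68.8 to 79.4 in control libraries, with no overlap. The sum of the 16 oxidation enzymes, which Ech1 dominates, was 618 to 711 RPKM in knockout and 577 to 679 RPKM in control libraries and overlapped. Such sums follow a few abundant genes and are no result about either group as a whole. Among peroxins, mean RPKM differed most for Pex16 (17 in knockout, 5.67 in control) and Pex19 (25.1 and 16.5). Among enzymes, Phyh was lower (72.3 and 140), while Cat (81.3 and 47.8), Scp2 (75.5 and 49.9) and Ehhadh (26.4 and 2.73) were higher.

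Knockout replicates 4 and 19 were the highest knockout libraries in 15 of the 30 genes, among them Pex16, Pex5, Ehhadh and Hacl1, where this was so in 20.4% of all genes tested. The same was so for 4 of 7 adipocyte markers (Adipoq, Plin1, Fabp4 and Lipe) and for 3 of 10 macrophage markers. Plin1, for example, stood at 203, 152, 191 and 159.5 RPKM in knockout replicates 4, 5, 19 and 20. Pparg, another of the 7 adipocyte markers, did not follow, with 53.9, 40.9, 35.9 and 49.2 RPKM in the same libraries. The part of adipocyte content in the spread between knockout libraries was not tested.

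Ratios within a library, which no scaling between libraries can change, were computed for 4 pairs of genes chosen after their values were seen, of which 3 are reported. The ratio of Ehhadh to Hsd17b4, the alternative bifunctional enzymes, was 1.11, 0.412, 0.957 and 0.592 in knockout replicates 4, 5, 19 and 20, against 0.110, 0.0697, 0.0874 and 0.113 in control replicates 11 to 14. Ehhadh reached the level of Hsd17b4 in knockout replicate 4 and was well below it in every control library. The ratio of Phyh to Hacl1 was 10.6, 15.1, 7.84 and 13 in knockout replicates 4, 5, 19 and 20, against 35.8, 35.7, 37.7 and 38.5 in control replicates 11 to 14. The excess of the first alpha-oxidation enzyme over the following one was thus smaller in every knockout library. Neither ratio overlapped between genotypes; as the pairs were picked for their values, this is a description and no test is given. The ratio of Pex5 to Pex7 was 2.75, 1.75, 2.20 and 1.94 in knockout replicates 4, 5, 19 and 20, against 1.08, 1.24, 1.54 and 1.78 in control replicates 11 to 14, and it overlapped by 1 library on each side.

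**Figure D3:**
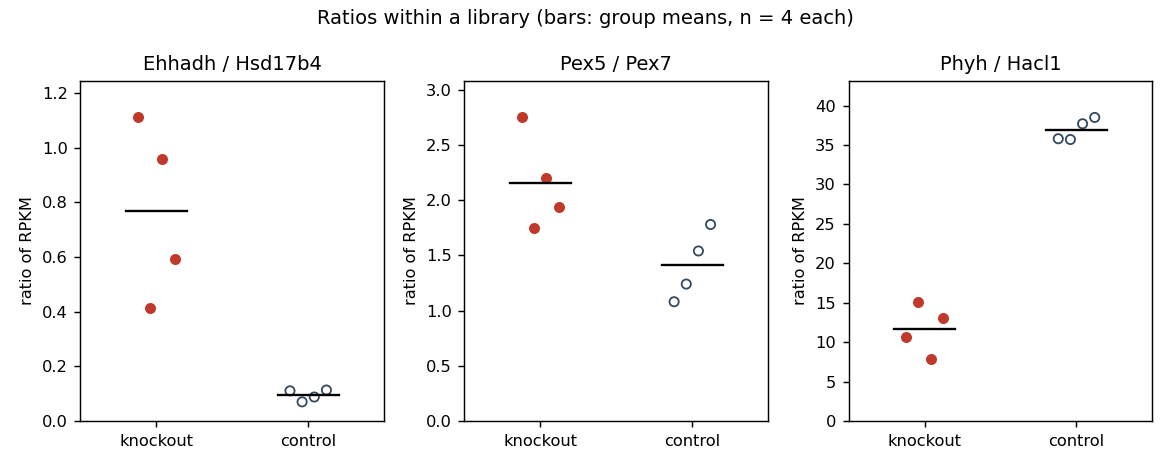
Ratio of the RPKM of 2 genes within each library, knockout on the left and control on the right of each panel, with bars at the group means (n = 4 each). Ehhadh to Hsd17b4 was higher in all knockout libraries, Phyh to Hacl1 was lower in all of them, and Pex5 to Pex7 overlapped.

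The wider peroxisomal inventory was followed through 58 further names, of which 44 were listed and tested. Among these 18 rose (40.9%) and 9 fell (20.5%), with a median log2 fold change of 0.12, where 19.4% of all genes tested rose and 15.9% fell. The share of falls was thus near that of all genes, and both moved with the scaling. With the library total alone 4 of the 44 fell (9.09%), where 7.17% of all genes fell. On scaling by the reads on listed genes 14 fell (31.8%), where 30.2% of all genes fell. The difference from the 28 genes above was not tested. Strong rises came from several functions. They included Ephx2, the soluble epoxide hydrolase, at 71.6 ± 7.47 RPKM in knockout and 28.4 ± 1.25 RPKM in control libraries, and Paox, a polyamine oxidase, at 12.4 ± 1.29 RPKM in knockout and 4.44 ± 0.544 RPKM in control libraries. Slc25a17, the peroxisomal carrier of CoA and other cofactors, had 13.3 ± 1.05 RPKM in knockout and 5.92 ± 0.796 RPKM in control libraries. Crat, carnitine acetyltransferase, had 69.9 ± 7.46 RPKM in knockout and 37.4 ± 1.59 RPKM in control libraries, and Pmvk, an enzyme of isoprenoid synthesis, 7.85 ± 1.01 RPKM in knockout and 3.64 ± 0.256 RPKM in control libraries. These 5 genes were 1.87-fold to 2.79-fold higher in the knockout, each without overlap (limma, adjusted p of at most 4.09e-05).

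Of the 9 falls outside the 30 genes, the 6 with the smallest adjusted p follow. Prdx5, a peroxide-removing peroxiredoxin of several compartments, had 68.7 ± 4.54 RPKM in knockout and 113 ± 13.5 RPKM in control libraries, 1.65-fold lower (limma, adjusted p = 0.000359), while Cat rose. Dnm1l, the dynamin-like GTPase that cuts both peroxisomes and mitochondria, had 4.57 ± 0.330 RPKM in knockout and 6.54 ± 0.384 RPKM in control libraries, 1.43-fold lower (limma, adjusted p = 0.000802), while Pex11a rose. Pxmp2, a channel of the peroxisomal membrane, was 1.72-fold lower, Dhrs4, a carbonyl reductase, 1.58-fold, Nudt19, a CoA-cleaving hydrolase, 1.48-fold and Ddo, D-aspartate oxidase, 1.25-fold (limma, adjusted p of at most 0.00728). Ddo and Nudt19 did not pass with the library total alone (limma, adjusted p = 0.28 and adjusted p = 0.0776).

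Of 13 nuclear receptors and coregulators tied to peroxisomal genes, 11 were tested, 3 rose and 3 fell (27.3% each), where 19.4% of all genes tested rose and 15.9% fell. A difference of this size on so few genes is no result about the list, and the genes are described singly. Ppara, the receptor named for peroxisome proliferation, had 18.4, 25, 23.4 and 20.9 RPKM in knockout replicates 4, 5, 19 and 20, against 24.5, 30.5, 30.9 and 25.3 RPKM in control replicates 11 to 14. The genotypes overlapped, and the call as lower (limma, log2 fold change -0.33, adjusted p = 0.0415) was lost with the library total alone (adjusted p = 0.363). It was also lost without knockout replicate 4 (adjusted p = 0.101) or 20 (adjusted p = 0.0928), and without control replicate 12 (adjusted p = 0.0957) or 13 (adjusted p = 0.0866). Pparg, the adipocyte member of the family, had 45.0 ± 8.06 RPKM in knockout and 48.9 ± 1.73 RPKM in control libraries and did not pass (limma, adjusted p = 0.399). Rxra, the usual dimer partner of both, had 5.69 ± 0.832 RPKM in knockout and 2.97 ± 0.337 RPKM in control libraries (limma, 1.92-fold, adjusted p = 0.000303). The corepressor genes Ncor1 and Nrip1 rose, 1.65-fold and 2.35-fold (limma, adjusted p of at most 0.000156). The coactivator genes Ppargc1a, with 0.977 ± 0.161 RPKM in knockout and 2.21 ± 0.401 RPKM in control libraries, and Ppargc1b, with 4.08 ± 0.816 RPKM in knockout and 6.22 ± 0.499 RPKM in control libraries, fell (limma, adjusted p = 0.000524 and adjusted p = 0.00638).

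**Figure D4:**
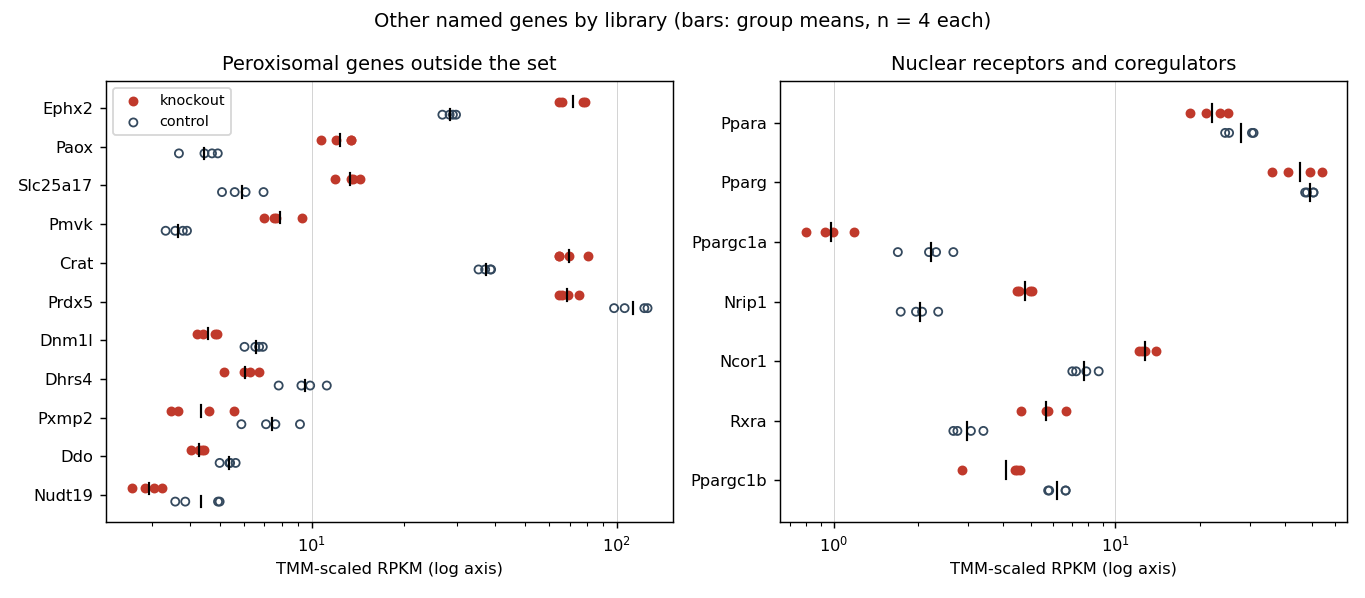
TMM-scaled RPKM (log axis) per library of the named peroxisomal genes outside the 30 and of the receptors and coregulators, knockout libraries as filled points above control libraries as open points, with bars at the group means (n = 4 each). Ephx2, at 64.5 to 78.8 RPKM in knockout and 26.8 to 29.7 RPKM in control libraries, shows a wide gap, while Ppara and Pparg overlap between genotypes.

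The scaling between libraries set how many of the smaller differences were called. With the library total alone the median log2 fold change of all genes was 0.14, and on scaling by the reads on listed genes its value was -0.11. The corresponding counts over the 28 genes were 19 higher and 3 lower with the library total alone, where 31.9% of all genes rose and 7.17% fell. They were 12 higher and 5 lower on scaling by the reads on listed genes, where 12.4% rose and 30.2% fell. Pex16, Pex19, Pex5, Pex13, Pex14, Pex11a, Ehhadh, Acaa1a, Scp2, Hacl1, Cat and Abcd3 rose, and Pex2, Phyh and Crot fell, under all 15 alternatives. The genes whose sign depended on the scaling, Pex10, Pex6, Pex7, Ech1 and Abcd2, were among those not called.

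**Figure D5:**
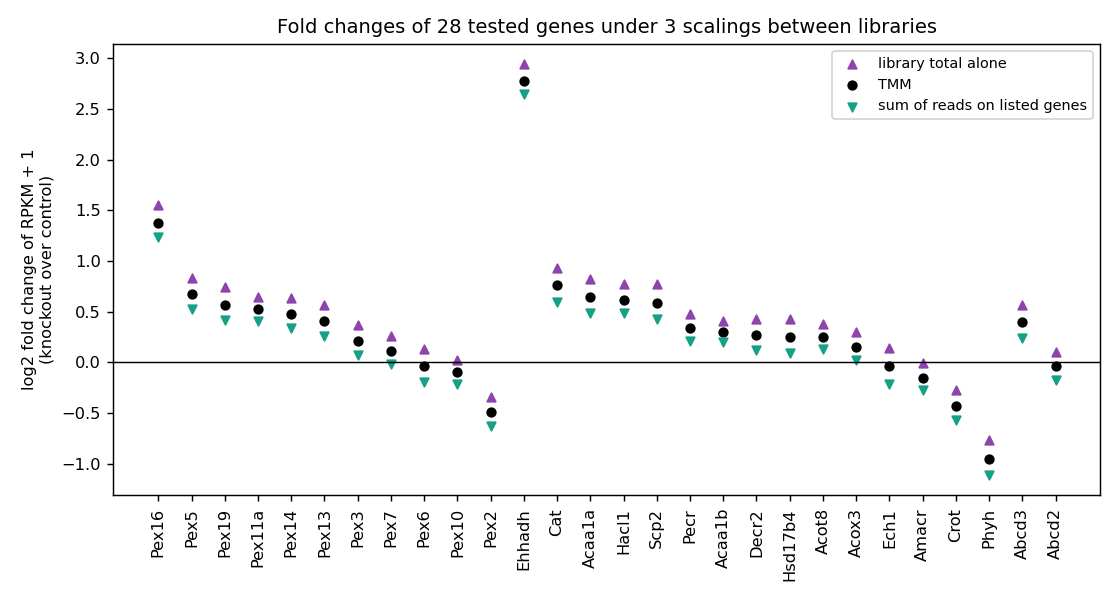
Log2 fold change of RPKM + 1, knockout over control, of the 28 tested genes under 3 scalings: library total alone (triangles up), TMM (circles) and the summed reads of listed genes (triangles down). The choice shifts all genes by a similar amount, so Ehhadh and Pex16 stay far above 0 and Phyh, Pex2 and Crot below it, while genes near 0, such as Ech1 (-0.04 with TMM), change sign.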

How the data were processed

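RNA-seq of brown adipose tissue was analysed from 1 deposited table of 11234 genes in 4 knockout and 4 control libraries. The tools named for the authors' pipeline are TopHat2, featureCounts and edgeR, on build mm9, per the submitters' processing notes. Their versions and settings, the annotation and any filter on genes are not given in the sources used. The authors' table holds, per the file headers, RPKM for every library and, for every gene, the average log2 CPM, the log2 fold change, its p-value and its FDR. A positive log2 fold change there means higher RPKM in the knockout.

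RPKM divides reads by gene length and library total, so genes can be compared in level, but composition is not corrected. Read numbers could be worked back from the values, and 100% came out whole to within 0.001 reads. For 43 genes a factor common to all libraries, lost at first, was put back. The unit of each gene was sought so that its values would be whole, so this share is no independent check. The read numbers served for depth, TMM weights (trim 0.3 of log ratios and 0.05 of levels) and a voom alternative. At these depths, 1 read on 1 kb is worth 0.0556 to 0.0734 RPKM, and duplicates cannot be removed. Tests were two-sided, from limma 3.58.1 in R 4.3.3 with a mean-variance trend, on log2 of TMM-scaled RPKM + 1 for the 8764 genes averaging 1 RPKM or more, with Benjamini-Hochberg adjustment over all of them and a threshold of 0.05. The method was also run on simulated reads with a spread between libraries (dispersion 0.05) that was set, not estimated from these data. There it called 3.17% of true 1.5-fold, 57.4% of 2-fold and 100% of 4-fold changes, and 0.163% of unchanged genes. In that simulation 8564 of 8746 genes were unchanged, whereas 35.3% of all genes tested were called in these data. Its rates therefore do not give the power of the test in these libraries. A gene that did not pass is not shown to be unchanged. Alternatives were other scalings, filters, a pseudocount of 0.1, voom, and leaving out each library. Python 3.11.15 made tables and figures.

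The genes, lists and tests were chosen with earlier results of these data known. Outside the 30 genes, the text names those with the smallest adjusted p in each direction; some genes of the wider list count in its totals but are not reported here. Promoters are RefSeq windows of GRCm38.p6, and overlaps are from GENCODE M21 (GRCm38). As these builds differ from mm9, no coordinates of measured genes are given.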

Additional observations from a re-analysis of the deposited data

Results flagged for a closer look

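The 49 named genes, which leave out the markers Plin1, Adipoq, Fabp4, Lipe, Ucp1 and Cidea, were searched, within each genotype, for a library lying far from its 3 companions. This was found in 1 of 98 groups, and about 4.9 would be found by chance. In knockout replicate 4 the level of Ppargc1b was 2.86 RPKM, while the remaining 3 knockout libraries had 4.41 to 4.59 RPKM.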

How the results depend on the processing

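The 15 alternatives were 3 other scalings, 2 filters, a pseudocount of 0.1, voom on recovered reads and leaving out each of 8 libraries. With the library total alone the median log2 fold change was 0.57 for peroxins and 0.43 for oxidation enzymes, 4 further peroxisomal genes fell, and 2796 genes rose and 628 fell over the whole table. On scaling by the reads on listed genes the medians were 0.26 and 0.13, 2 peroxins fell, 5 oxidation enzymes rose, 14 further peroxisomal genes fell, and 1087 genes rose and 2651 fell. With no filter, or with at least 1 RPKM in 4 libraries, the median over peroxins was 0.31, since Pex26 then enters. Leaving out 1 library gave 5 to 8 oxidation enzymes that rose. Signs reversed with the library total alone for Pex10 (0.02), Pex6 (0.13), Ech1 (0.14), Abcd2 (0.10) and Pparg (0.04), and with the sum on listed genes for Pex7 (-0.02); none of these was called with TMM. Leaving out 1 library moved Pex6 over -0.10 to 0.02, Ech1 over -0.11 to 0.02 and Abcd2 over -0.18 to 0.07. Hsd17b4 (adjusted p = 0.0508) and Decr2 (adjusted p = 0.0507) did not pass with relative log expression size factors, nor did Decr2 with no filter (adjusted p = 0.0518), and with the sum on listed genes Hsd17b4, Decr2 and Pecr did not. No paired analysis was possible because the genotypes share no replicate number. Low read numbers limit Pex10, Pex11a, Pex26, Acaa1b, Acot4 and Acot8 most, and intervals do not cover differences in cell content. The causes of these shifts were not tested, except that the scalings shift all genes together by construction.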
